A study of Mus musculus with 16 samples.

Results

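The quercetin comparison set bone-marrow dendritic cells treated with quercetin alone against untreated cells of the same mice, in the small RNA libraries labelled quercetin without LPS (4 samples) and control (4 samples), 8 of the 16 libraries of the series. The series profiled microRNAs (miRNAs) of cultured bone-marrow dendritic cells from 4 wild-type C57BL/6 mice, each giving 1 culture per condition. Bone marrow was taken from the hind-leg bones, red cells were lysed, and the cells were grown in culture. Per the growth text of the labels the mice were male and 8 weeks old, except mouse 4, labelled 7 weeks, and 1 library outside the comparison whose label leaves the sex out. Treated cells received 25 µM of quercetin aglycone (quercetin without an attached sugar) on days 5 and 7, and the labels name no vehicle for the controls. The remaining 8 libraries had 1 µg/mL of bacterial lipopolysaccharide (LPS) for 6 h on day 8, without or with the same quercetin exposure. All 1372 miRNA names analysed entered the comparison, 1286 of them had at least 1 count in the 8 libraries, and 568 were abundant enough to test.

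MiRNAs are short RNAs that load into an Argonaute protein and lower the output of messenger RNAs. A hairpin precursor yields a duplex whose arms are called 5p and 3p, and usually 1 arm (the guide) is kept while the other (the passenger) is degraded. Bases 2 to 8 from the 5′ end, the seed, set most of the target choice, so miRNAs with 1 seed form a family. Quercetin is a plant flavonol widely studied for dampening inflammatory signalling. In dendritic cells, the antigen-presenting cells that prime T cells, Toll-like receptor (TLR) ligands such as LPS induce a known group of miRNAs, with miR-155 the best studied.

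The mature sequences on which the comparison turned are given 5′ to 3′ with the seed in capitals, as RefSeq lists them for mouse build GRCm38.p6. The first set holds miRNAs that were lower with quercetin, with miR-221-3p and miR-155-5p, which did not pass the test, shown as the relative of the same seed and the other arm.
miR-132-3p: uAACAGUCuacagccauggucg
miR-212-3p: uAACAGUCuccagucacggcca
miR-222-3p: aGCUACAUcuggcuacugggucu
miR-221-3p: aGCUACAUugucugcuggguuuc
miR-155-3p: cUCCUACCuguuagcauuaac
miR-155-5p: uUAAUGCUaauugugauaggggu
miR-34b-3p: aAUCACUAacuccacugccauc
miR-34c-3p: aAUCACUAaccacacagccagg
miR-342-5p: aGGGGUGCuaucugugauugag
miR-3968: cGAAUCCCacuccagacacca
The second set holds miRNAs that were higher, with miR-192-5p shown because it has the seed of miR-215-5p.
miR-215-5p: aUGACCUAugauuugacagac
miR-192-5p: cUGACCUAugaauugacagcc
miR-210-3p: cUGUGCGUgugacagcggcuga
miR-451a: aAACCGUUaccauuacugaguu
miR-144-3p: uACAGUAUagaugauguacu
miR-182-5p: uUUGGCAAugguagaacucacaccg
miR-96-5p: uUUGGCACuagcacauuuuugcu
let-7c-5p: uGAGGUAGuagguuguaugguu
miR-369-3p: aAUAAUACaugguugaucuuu
miR-410-3p: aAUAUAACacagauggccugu
miR-7033-5p: uCUCCAGGagucugaggggcagg
miR-29c-5p: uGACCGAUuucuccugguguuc
miR-132-3p and miR-212-3p share the seed AACAGUC, miR-221-3p and miR-222-3p share GCUACAU, and miR-34b-3p and miR-34c-3p share AUCACUA. The seeds of miR-182-5p and miR-96-5p differ in their last base alone.

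Control libraries held 8668512 to 12535228 miRNA counts and quercetin libraries 7698774 to 8572734, so every quercetin library was shallower than every control library. An exact permutation test of 4 against 4, which did not use the pairing by mouse, gave a two-sided p = 0.0286 (0.0571 adjusted over 2 measures). The value 0.0286 is the smallest that such an unpaired test can give. The part of depth in the results was not tested. Between 923 and 997 names were detected in controls and between 896 and 967 with quercetin (exact permutation p = 0.457). On the first principal component, with 39.3% of the variance of the 8 libraries, controls lay between -11.7 and -9.39 and quercetin libraries between 8.24 and 11.5. The cells carried miRNAs typical of blood cells: miR-142a-5p was at 15908 to 34590.1 CPM (counts divided by the TMM-scaled library size, per 1000000) and miR-155-5p at 22196 to 49322 CPM in all 8 libraries. No miRNA marks dendritic cells alone, so the cell type itself could not be checked.

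Quercetin was followed by higher levels of 39 miRNAs and lower levels of 51, out of 568 tested. The higher ones included miRNAs of red-cell development, miR-215, miR-210-3p, miR-182 and its clustered neighbours and a group of imprinted miRNAs. Those that fell included all 4 arms of the miR-132 and miR-212 cluster, miR-147, both arms of miR-222, miR-155-3p and miR-342. Past the threshold, an adjusted p under 0.05 in edgeR's quasi-likelihood test over all tested miRNAs, 6.87% of tested miRNAs were higher and 8.98% lower. Unadjusted, 155 had p under 0.05. The median log2 fold change over all tested was -0.05. With upper quartile scaling in place of TMM that median was 0.15, and the calls split into 48 higher and 29 lower. The 4 control values and the 4 quercetin values did not overlap in 122 of 568 miRNAs (21.5%), and in 79 of the 90 that passed (34 higher, 45 lower).

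Sizes were similar in both directions: the median size on the log2 scale was 1.52 among the 39 higher (0.53 to 5.01) and 1.43 among the 51 lower (0.65 to 3.86). A difference of at least 2-fold was seen in 33 of the higher and 37 of the lower, and of at least 4-fold in 14 and 11. A mean of 1000 CPM or more over the 8 libraries was reached by 6 of the higher and 4 of the lower, beside 68 of the 568 tested. Summed as TMM-scaled CPM, the 39 higher miRNAs came to 2.69% ± 0.486 of 1000000 in controls and 5.10% ± 0.332 with quercetin (SD, n = 4). The 51 lower came to 2.91% ± 0.199 and 1.40% ± 0.119. Names with identical counts entered these sums separately. After scaling, the CPM of a library do not add up to 1000000, so the sums are not shares of raw counts. Since these sets were picked by the same comparison, the sums are a description. With 1 library left out at a time, 54 to 76 miRNAs passed and 43 passed in each of the 8 fits (19 higher, 24 lower). Fewest passed without quercetin 4 (54) and quercetin 3 (55), and 46 without mouse 4 in every group.

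**Figure D1:**
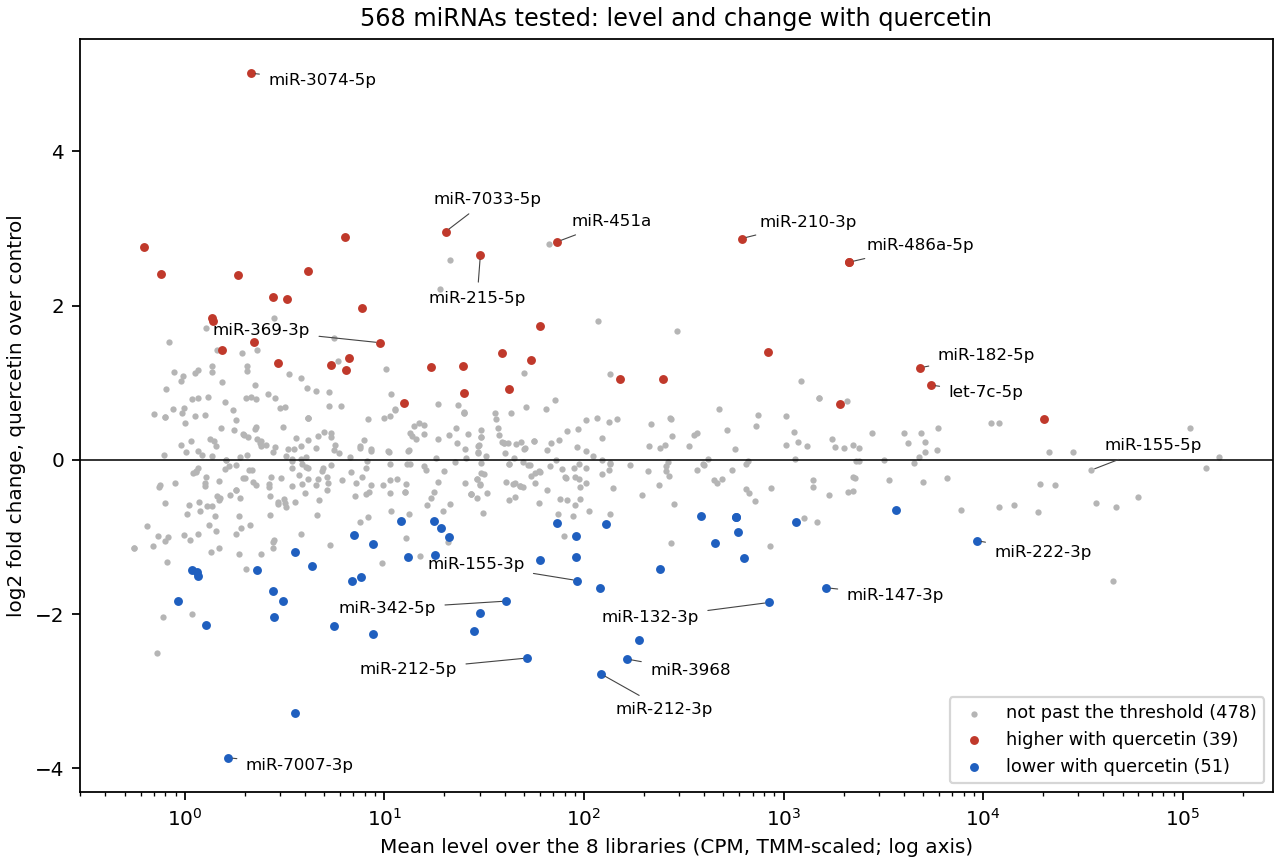
Each point is 1 of 568 miRNAs: mean level over the 8 libraries (CPM, log axis) against the log2 fold change of quercetin over control. Red points (39) and blue points (51) passed the threshold, most of them at a middle or low level, while miR-155-5p at the right lay near 0.

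The cluster of miR-132 and miR-212 fell as a whole. Its 2 hairpins lie side by side on mouse chromosome 11 (GRCm38 chr11:75173388-75173478 for Mir212 and chr11:75173682-75173747 for Mir132, plus strand), in an intron of the noncoding transcript 1700016P03Rik. The pair is known as a target of the transcription factor CREB and is induced by growth factors and by TLR ligands. miR-132-3p, the most abundant of the 4 arms, was at 898, 1085, 2039.8 and 1283 CPM in controls 1 to 4 and at 300.4, 348, 442 and 383 CPM in quercetin 1 to 4. Every quercetin value was below every control value, and the log2 fold change was -1.85 (SE 0.26, edgeR adjusted p = 0.000125).

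miR-212-3p, which shares the seed printed above, stood at 209, 300.1, 164 and 177 CPM in controls and 37.2, 29.5, 31.9 and 25.7 CPM with quercetin. The groups were again apart in all 4 mice, with a log2 fold change of -2.78 (SE 0.28, edgeR adjusted p = 7.89e-06). The passenger arms did the same: the log2 fold change was -1.99 (SE 0.25) for miR-132-5p and -2.57 (SE 0.36) for miR-212-5p. All 4 tested arms of the list were lower (median -2.28, against -0.05 for all tested), beside 8.98% lower among all tested. These 4 calls held with every library left out in turn.

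Of the 22 tested members of the TLR-responsive list, 8 fell and 0 rose, beside 8.98% lower and 6.87% higher among all tested. The median log2 fold change was -0.90 against -0.05 for all tested. In bulk samples, fewer cells of a type and less RNA per cell cannot be told apart. miR-147-3p, which is induced by TLR signals in macrophages, was at 3186, 2786, 1809.7 and 2169 CPM in controls and 807, 769, 688 and 892 CPM with quercetin. Its lowest control value was over the highest quercetin value, and its log2 fold change was -1.66 (SE 0.30, edgeR adjusted p = 0.00127). The other arm, miR-147-5p, was at 25.1, 8.83, 23.0 and 17.3 CPM against 5.78, 10.2, 7.38 and 7.80 CPM, where control 2 lay within the quercetin range. It changed by -1.25 (adjusted p = 0.0384). With the mouse as a replicate block its adjusted p was 0.0526, and it reached 0.135 with 1 library left out (lost without any library other than control 2).

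miR-221 and miR-222 are made from neighbouring hairpins on chromosome X and are known to restrain the cell cycle inhibitor p27 and the receptor KIT. miR-222-3p, the most abundant of the 51 that fell, was at 10325, 12825, 13505 and 13560.5 CPM in controls and 7455, 4888, 6435 and 5519.5 CPM with quercetin. No value of 1 group reached the other, and the log2 fold change was -1.05 (SE 0.26, edgeR adjusted p = 0.0140). The adjusted p passed 0.05 without quercetin 3 or quercetin 4 (up to 0.0568), and also with library totals alone in place of TMM. miR-222-5p was at 135, 175, 238 and 186 CPM in controls and held between 56.9 and 59.4 CPM in all 4 quercetin libraries (log2 fold change -1.66, SE 0.21).

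Of miR-221, the passenger arm miR-221-5p fell, with 381, 491, 287 and 235 CPM in controls and 182, 101, 131 and 107 CPM with quercetin (log2 fold change -1.42, edgeR adjusted p = 0.0304). That call was lost in 7 fits that left libraries out, up to an adjusted p of 0.107, with control 4 and quercetin 1 the libraries whose loss left it in place. The guide arm miR-221-3p did not pass: its values were 6799, 6318, 8622 and 6817 CPM in controls and 7021, 4961, 6891 and 5373 CPM with quercetin, which overlap (log2 fold change -0.24, adjusted p = 0.478).

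miR-155 differed between its arms. The guide miR-155-5p, which promotes inflammatory responses, was at 22196, 43209, 49322 and 29924 CPM in controls and 28807, 33228, 37834 and 31790.4 CPM with quercetin. All quercetin values lay within the control range, with a log2 fold change of -0.14 (SE 0.30, edgeR adjusted p = 0.813). Its passenger miR-155-3p was at 154, 214, 92.8 and 94.0 CPM in controls and 48.1, 38.3, 55.6 and 45.5 CPM with quercetin. Here the groups were apart (log2 fold change -1.56, SE 0.34, adjusted p = 0.00587), and the call held with each library left out.

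The miR-146 family, which restrains TLR signalling by targeting IRAK1 and TRAF6, varied widely between control mice. miR-146b-5p, 1 of the 5 most abundant miRNAs in controls, was at 44582, 98027, 95135 and 31077 CPM in controls and 32699.5, 20727, 17778 and 19091 CPM with quercetin. Control 4 was below quercetin 1, and the difference missed the threshold (log2 fold change -1.57, SE 0.57, edgeR adjusted p = 0.0758). Its other arm, miR-146b-3p, fell from 26.4, 30.3, 21.1 and 23.0 CPM to 12.8, 9.84, 10.7 and 9.48 CPM without overlap (log2 fold change -1.24, adjusted p = 0.00121). For miR-146a-5p the values were 1019.6, 3179.7, 1474 and 669 CPM against 1744, 638, 697 and 683 CPM. Quercetin 1 was within the control range and the other 3 quercetin libraries were near control 4 (log2 fold change -0.75, adjusted p = 0.478).

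Also on that list, miR-125a-5p fell from 54.1, 165, 200.2 and 94.5 CPM to 40.6, 55.6, 59.0 and 59.4 CPM, with control 1 inside the quercetin range (log2 fold change -1.26, edgeR adjusted p = 0.0242). Its call was lost without control 2, control 3, quercetin 1, quercetin 3, quercetin 4 or mouse 4 (adjusted p up to 0.0931). miR-9-5p and miR-21a-5p, both induced by TLR signals in some myeloid cells, had log2 fold changes of 0.17 and -0.10 and did not pass. Against untreated cells, LPS itself gave a log2 fold change of 2.00 for miR-155-3p (adjusted p = 0.0106), 1.15 for miR-222-5p (adjusted p = 0.0106) and -0.07 for miR-132-3p (adjusted p = 0.9995). The same control libraries serve both comparisons, so these stand only beside the quercetin values -1.56, -1.66 and -1.85.

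**Figure D2:**
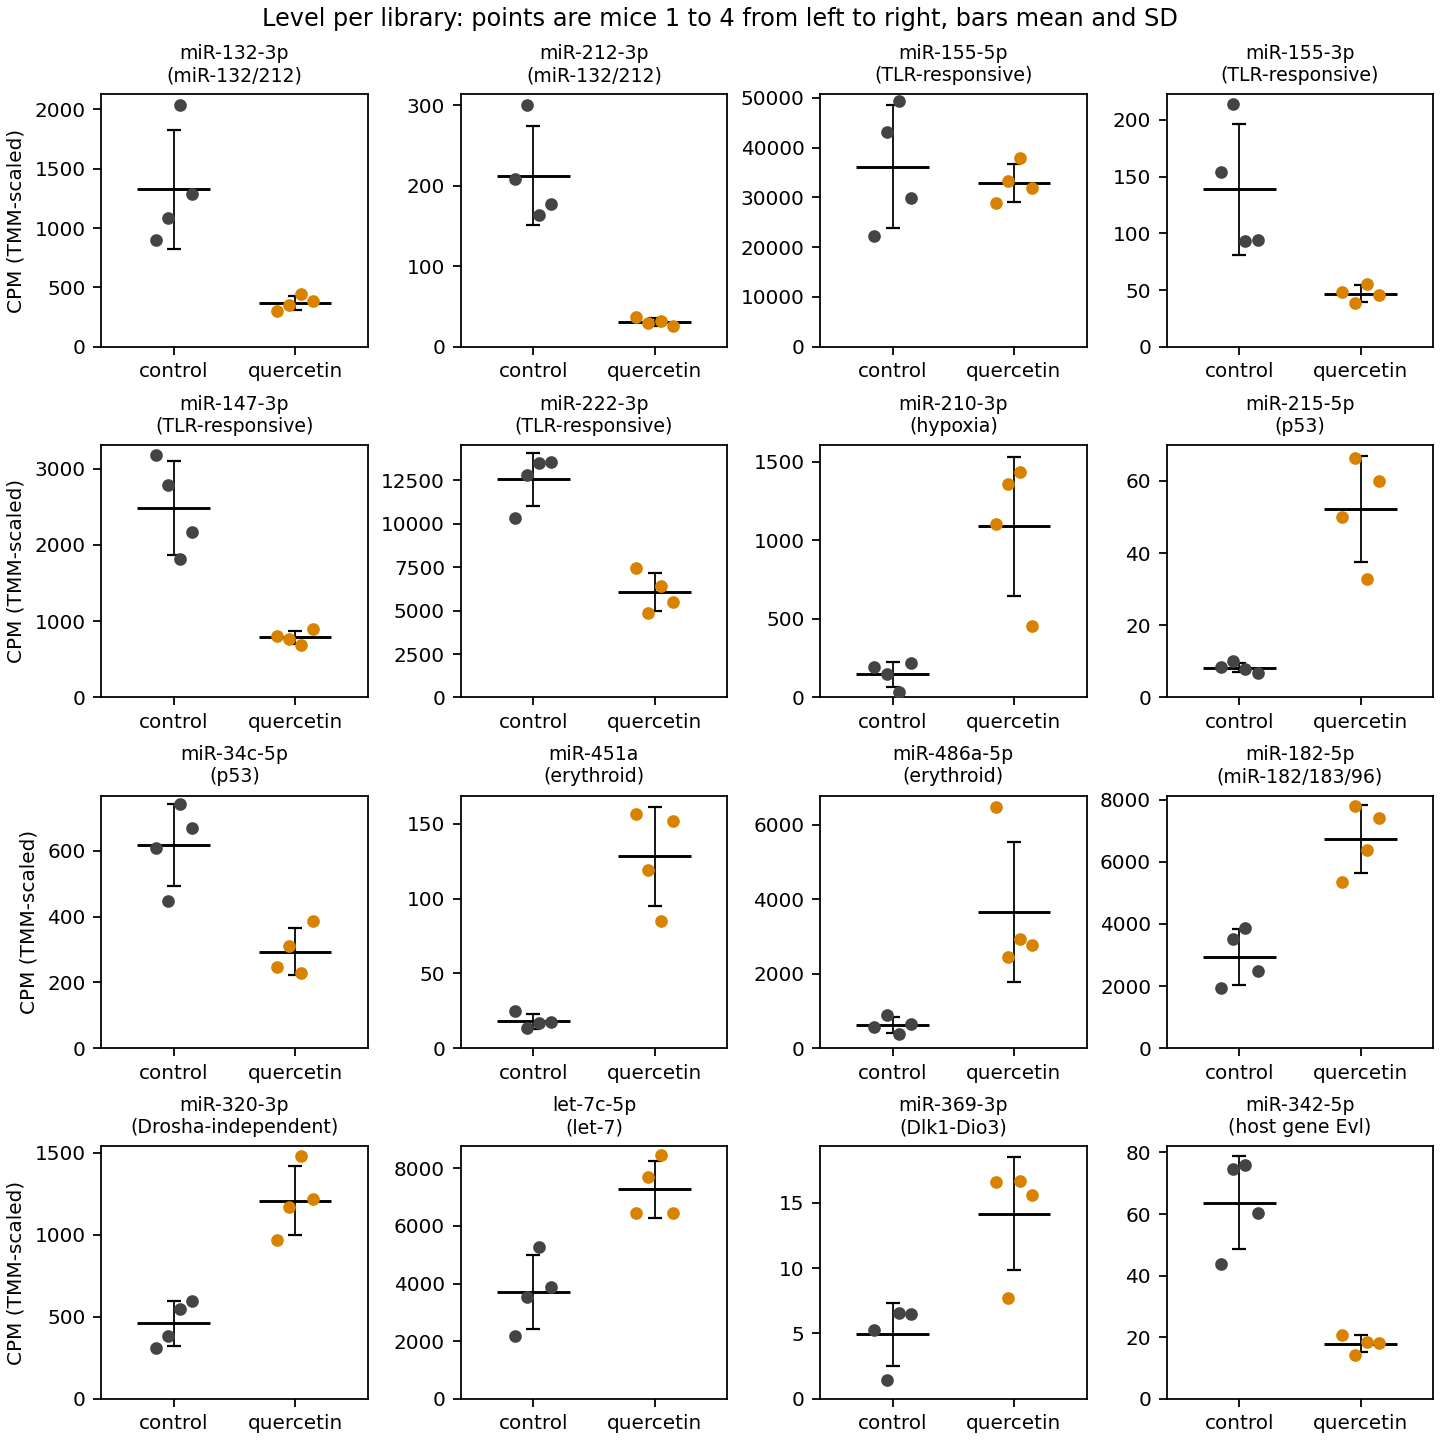
CPM (after TMM scaling, axes from 0) of 16 miRNAs in the 4 control and 4 quercetin libraries, 1 panel per miRNA, with points for mice 1 to 4 and black bars for mean and SD. The 2 groups overlap for miR-155-5p and for no other panel.

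Among miRNAs linked to the stress regulator p53 or to hypoxia, 3 of 14 tested rose and 3 fell (median log2 fold change 0.08), beside 6.87% higher and 8.98% lower among all tested. miR-215-5p, a p53-induced miRNA of the miR-192 family, was at 8.43, 10.1, 7.79 and 6.84 CPM in controls and 49.95, 66.4, 32.7 and 60.0 CPM with quercetin. All 4 quercetin libraries were above all controls, and the log2 fold change was 2.66 (SE 0.28, edgeR adjusted p = 7.89e-06). Its passenger miR-215-3p was at 0 to 0.502 CPM in controls and 0.681 to 1.56 CPM with quercetin (log2 fold change 2.77, adjusted p = 0.0220), and lost its call without control 1, 2 or 4 or quercetin 2 or 4 (up to 0.0613). miR-192-5p has the same seed and was far more abundant, at 5319, 4701, 4494 and 3804 CPM in controls and 4404, 4759, 3507 and 5129 CPM with quercetin. Those values overlap (log2 fold change -0.04, adjusted p = 0.922), as do those of miR-194-5p, whose Mir194-1 hairpin lies beside Mir215 (log2 fold change 0.19).

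miR-210-3p, the best known miRNA target of the hypoxia factor HIF-1, was at 192, 150.0, 37.1 and 216 CPM in controls and 1105, 1356, 1434 and 457 CPM with quercetin. The lowest quercetin value, in mouse 4, was above the highest control value, also in mouse 4, and control 3 was the lowest of all. The log2 fold change was 2.87 (SE 0.83, edgeR adjusted p = 0.0258). With the replicate block it was 2.40 (adjusted p = 0.0563). The call was also lost without control 1, 2 or 3 or quercetin 2 or 3 (adjusted p up to 0.0699). miR-210-5p, from the same hairpin, was at 12.2, 26.2, 3.01 and 26.2 CPM and 156, 151, 138 and 24.01 CPM, with quercetin 4 among the controls (log2 fold change 2.79, adjusted p = 0.106).

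The miR-34b/c pair, direct targets of p53, went the other way. miR-34c-5p was at 609, 449, 741 and 669 CPM in controls and 246, 310.2, 229.7 and 386 CPM with quercetin, without overlap (log2 fold change -1.07, SE 0.29, edgeR adjusted p = 0.0191). miR-34b-3p (-0.88) and miR-34c-3p (-0.98) fell by a like amount on the log2 scale. miR-34a-5p, transcribed from another locus, was at 563, 608, 683 and 460.0 CPM and 517, 538, 501 and 563 CPM and did not pass (log2 fold change -0.13, adjusted p = 0.749). Upper quartile scaling ended each of the 3 calls, and library totals alone those of miR-34c-5p and miR-34b-3p. Leaving out control 3 or quercetin 3 ended each of them too. So did quercetin 1 for miR-34c-5p (up to 0.0711) and quercetin 4 or mouse 4 for both other arms (up to 0.0931 for miR-34b-3p, which control 2 and quercetin 1 ended too, and 0.0789 for miR-34c-3p).

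Erythroid miRNAs were higher with quercetin: 5 of 7 tested members passed, with a list median of 2.56 against -0.05 for all tested and 6.87% higher among all tested. miR-451a and miR-144 come from 1 transcript on chromosome 11 (GRCm38 chr11:78073005-78073241 spans both hairpins) and mark red-cell precursors. miR-451a is cut by Argonaute 2 in place of Dicer. It was at 24.9, 13.1, 16.7 and 17.5 CPM in controls and 157, 119, 85.3 and 152.2 CPM with quercetin. The groups were far apart, with a log2 fold change of 2.83 (SE 0.33, edgeR adjusted p = 2.93e-05). miR-144-3p was at 2.24, 0.616, 0.879 and 2.16 CPM and 17.3, 2.62, 2.95 and 22.1 CPM, with quercetin 1 and 4 well above quercetin 2 and 3 (log2 fold change 2.89). miR-144-5p changed by 2.40, and both miR-144 calls were lost without mouse 4 (adjusted p 0.0603 and 0.0612).

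miR-486a-5p carried most of the erythroid counts, at 569.8, 877, 378 and 649.8 CPM in controls and 6471, 2458, 2933 and 2778 CPM with quercetin. Quercetin 1 was more than any other library, and the remaining 3 were still above all controls (log2 fold change 2.56, SE 0.46, edgeR adjusted p = 0.00107). The name miR-486b-5p held identical counts, so the pair is 1 measurement. With names of identical counts taken once, the 7 names are 5 measurements, 4 of them higher, which summed to 398 to 894 CPM in controls and 2585 to 6649.8 CPM with quercetin. Red cells were lysed before culture in all groups, per the labels. The part of red-cell RNA in other results was not tested.

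In each list of markers of other cells, fewer members passed. Of 19 tested stromal, endothelial and epithelial markers, 1 rose (miR-10b-5p) and 0 fell, beside 6.87% higher and 8.98% lower among all tested. With names of identical counts taken once, they summed to 567 to 970.4 CPM in controls and 831 to 1982 CPM with quercetin. The top of that range came from miR-143-3p, at 15.6, 84.2, 349 and 110.5 CPM in controls and 54.1, 479, 67.3 and 1186 CPM with quercetin. Its log2 fold change was 1.67 with a wide SE of 1.16 (edgeR adjusted p = 0.371). miR-205-5p (1.72, SE 0.70) and miR-145a-5p (1.39, SE 0.93) did not pass either. Of the 19 markers, 12 had log2 fold changes above 0, with a median of 0.22 and a lowest value of -0.58. miR-10b-5p, encoded among the Hoxd genes, was at 142, 155, 206 and 146 CPM and 381, 247, 348 and 372 CPM without overlap (log2 fold change 1.05, edgeR adjusted p = 0.0446). With the replicate block its adjusted p was 0.0632, and the call held only when control 3 or quercetin 2 was the library left out (otherwise up to 0.176).

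Lymphocyte-linked members numbered 3 lower and 0 higher of 8 tested (summed 82433 to 132791 CPM in controls and 109098 to 156263 CPM with quercetin, mostly miR-181a-5p), beside 8.98% lower among all tested. The lower members were miR-342-5p (-1.83), miR-342-3p (-0.80) and miR-28a-5p (-0.74), on the log2 scale. miR-150-5p, the defining lymphocyte miRNA, was at 388, 535, 1023 and 733 CPM in controls and 537, 654, 785 and 679.9 CPM with quercetin. It did not pass (log2 fold change -0.01, edgeR adjusted p = 0.984). Granulocyte and monocyte members were 2 lower and 0 higher of 10 tested (23383 to 44961 CPM and 20457 to 34571 CPM in sum), beside the same 8.98%. miR-223-5p, the passenger of a granulocyte miRNA, was at 91.9, 127, 145 and 122 CPM and 85.9, 58.2, 54.1 and 47.8 CPM (log2 fold change -0.98, edgeR adjusted p = 0.0188). Its call was lost without control 2 or 3, quercetin 3 or 4 or mouse 4 (up to 0.122). The guide miR-223-3p was at 2990, 2891, 2001 and 1708 CPM in controls and 2546, 1308, 1661 and 1680 CPM with quercetin. Those values overlap, and the guide did not pass (log2 fold change -0.41, edgeR adjusted p = 0.298). The other lower member was miR-322-5p. Liver, muscle and brain markers were 0 of 5 in either direction, with miR-1a-3p and miR-122-3p at 0 in 7 of the 8 libraries. The liver miRNA miR-122-5p was at 3.79, 3.49, 13.4 and 4.33 CPM in controls and 15.7, 6.80, 19.97 and 14.04 CPM with quercetin (log2 fold change 1.18, edgeR adjusted p = 0.122), where control 3 lay within the quercetin range. In sum that list was at 1796 to 2379 CPM in controls and 1919 to 2564 CPM with quercetin, nearly all miR-9-5p and miR-128-3p. The part of these markers in other results was not tested.

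The cluster of miR-182, miR-96 and miR-183 on chromosome 6, best known from sensory neurons and from lymphocyte expansion, had 3 of 4 tested arms higher. Among all tested, 6.87% were higher. The cluster was not among the lists and was picked out after its values were seen. miR-182-5p, the most abundant, was at 1929.9, 3515, 3855 and 2471 CPM in controls and 5352, 7799, 6387 and 7420.0 CPM with quercetin. The groups did not overlap, and the log2 fold change was 1.20 (SE 0.31, edgeR adjusted p = 0.0160; 0.0872 without mouse 4). miR-96-5p (1.23) and miR-183-3p (1.32), which both averaged under 10 CPM over the 8 libraries, passed as well. With 1 library left out, the first kept its call only without control 3 or quercetin 1 and the second only without control 2, control 3 or quercetin 1 (otherwise adjusted p up to 0.103 and 0.120). miR-183-5p did not pass, at 171, 747, 234 and 143 CPM and 518, 352, 364 and 417 CPM, where control 2 was the highest of the 8.

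MiRNAs of the imprinted Dlk1-Dio3 region on chromosome 12, expressed from the maternal chromosome, were low throughout. Of 96 members listed, 51 were in the table and 12 were tested. miR-654-3p of the region was left out, since its counts look exchanged with a neighbouring row: it had 148, 129, 25 and 100 counts in controls and 1, 0, 0 and 0 with quercetin, where the neighbour held 59, 52, 57 and 13. All 12 had log2 fold changes above 0, 5 passed (6.87% higher among all tested), and the median was 1.53. A rare miRNA passes the abundance filter more easily when it is high in 1 group, so the count over tested members is a description. miR-369-3p was at 5.26, 1.44, 6.53 and 6.49 CPM in controls and 16.6, 7.75, 16.7 and 15.6 CPM with quercetin. Quercetin 2 was lower than the remaining quercetin libraries and still above all controls (log2 fold change 1.52, SE 0.43, edgeR adjusted p = 0.0231). The call was lost without quercetin 1, 3 or 4 or mouse 4 (up to 0.0872).

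miR-410-3p, printed above with miR-369-3p and encoded beside it in the Mirg transcript, was at 4.10, 1.75, 2.64 and 3.98 CPM and 16.5, 3.98, 16.6 and 12.4 CPM. Quercetin 2 lay within the control range (log2 fold change 1.97, edgeR adjusted p = 0.00847). miR-409-3p (2.08), miR-411-5p (1.26) and miR-127-5p (2.41) passed too. In each of these 5 miRNAs quercetin 2 was the lowest of the quercetin libraries. The call of miR-127-5p was lost without control 2 or 3, quercetin 1 or 3 or mouse 4 (up to 0.0905). Members outside the test included miRNAs with few counts, and no level is claimed for them.

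**Figure D3:**
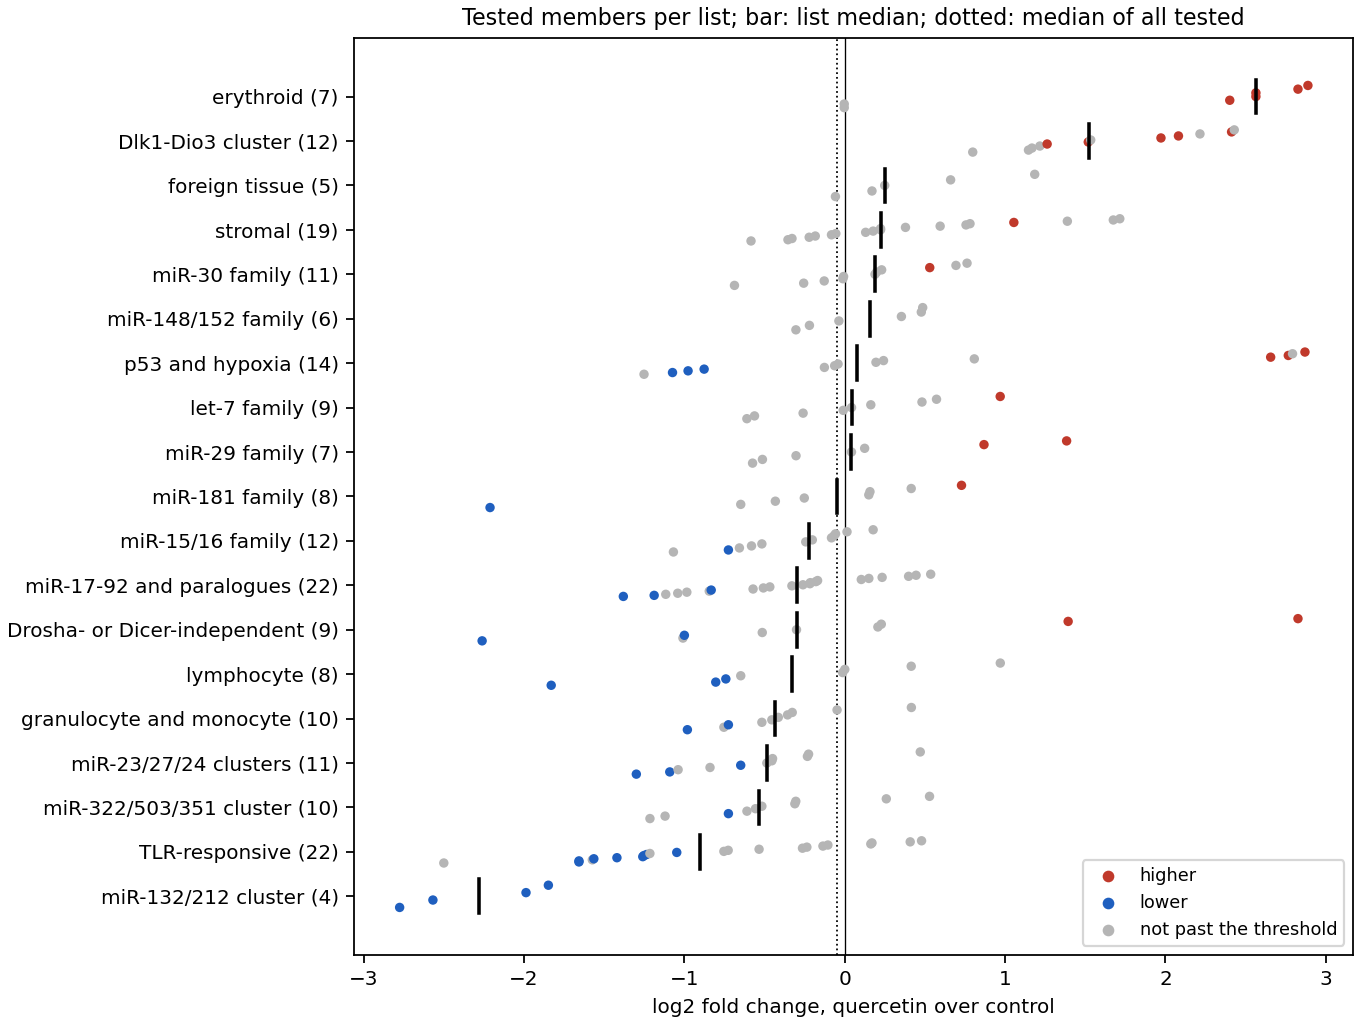
Log2 fold change (quercetin over control) of the tested members of each list, 1 point per miRNA, red for higher, blue for lower and grey for not past the threshold. Black bars are list medians, from -2.28 for the miR-132 and miR-212 cluster to 2.56 for the erythroid list, and the dotted line is the median of all tested, -0.05.

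miR-342 lies in an intron of Evl on chromosome 12 and is abundant in blood cells. miR-342-5p was at 43.9, 74.7, 76.0 and 60.3 CPM in controls and 20.8, 14.2, 18.5 and 18.1 CPM with quercetin. The groups were clearly apart (log2 fold change -1.83, SE 0.22, edgeR adjusted p = 2.98e-05). The guide miR-342-3p was at 1129, 1439, 1854 and 1421 CPM and 637, 837, 1009 and 864 CPM, without overlap but with a smaller log2 fold change of -0.80 (adjusted p = 0.0259). Its call was lost without control 3, quercetin 1, quercetin 4 or mouse 4 (up to 0.107).

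In the miR-23/27/24 clusters 3 of 11 tested arms fell (median -0.49), beside 8.98% lower among all tested. miR-27a-3p, a regulator of lipid and myeloid genes, was at 4810.1, 5582, 3897 and 3603 CPM in controls and 2998, 2811, 2602 and 3003 CPM with quercetin. The groups were apart (log2 fold change -0.65, edgeR adjusted p = 0.0262), though the call held only when control 3 or 4 was the library left out (otherwise up to 0.120). miR-27a-5p (-1.30) and miR-24-1-5p (-1.09) were the others; miR-27a-5p kept its call without control 3, control 4 or quercetin 1 and miR-24-1-5p without control 3 or 4 (up to 0.0789 and 0.0990). Of 22 tested arms of the growth-promoting miR-17-92 cluster and its paralogues, 3 fell and 0 rose (median -0.29), against the same 8.98%. Among these, miR-106a-5p (-1.19) and miR-20b-5p (-1.38) are neighbours on chromosome X and averaged under 10 CPM. They differ by few bases from abundant relatives, and how the authors assigned such reads is not given in the sources used here. The third, miR-92a-1-5p (-0.83), kept its call without control 4 or quercetin 1 (up to 0.137).

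Of 9 tested let-7 family guides, which hold cells in a differentiated state, let-7c-5p alone passed, beside 6.87% higher among all tested. It was at 2166, 3533, 5261 and 3876 CPM in controls and 6454, 7699, 8447 and 6453 CPM with quercetin. No values overlapped (log2 fold change 0.97, SE 0.27, edgeR adjusted p = 0.0220; 0.0572 without control 4). let-7b-5p, let-7a-5p, let-7f-5p and let-7i-5p had 0.57, 0.48, -0.56 and -0.61 and did not pass, and the list median was 0.04. Closely alike let-7 sequences can share reads, so single members are uncertain.

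In the miR-30 family 1 of 11 rose (median 0.19), beside 6.87% higher among all tested. That member, miR-30d-5p, the most abundant of all miRNAs that passed, was at 14576, 15996, 21197 and 14120.2 CPM and 24845, 20536, 25439.5 and 24338 CPM. Quercetin 2 was within the control range (log2 fold change 0.53, edgeR adjusted p = 0.0451), and the call held only when control 3 or quercetin 2 was the library left out (otherwise up to 0.229). miR-30b-5p was at 1854, 967, 1812 and 1525 CPM and 1916, 2759.9, 3678 and 2096 CPM and did not pass (log2 fold change 0.76, adjusted p = 0.0957), but did with the replicate block (0.76, adjusted p = 0.0467). In the miR-29 family, known for repressing collagen genes, the passengers miR-29a-5p (1.38) and miR-29c-5p (0.87) rose, 2 of 7 tested, beside the same 6.87%. The first lost its call without control 2 or 4, quercetin 2 or 4 or mouse 4 (up to 0.135) and the second without control 4 or mouse 4 (up to 0.114).

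The miR-181 family, which tunes receptor signalling in lymphocytes, had 1 of 8 higher (miR-181c-5p, 0.73, kept only without control 1 or quercetin 1, adjusted p up to 0.156) and 1 lower, beside 6.87% higher and 8.98% lower among all tested. The lower one, miR-181b-1-3p, was at 44.2, 27.2, 57.7 and 56.5 CPM in controls and 8.74, 12.04, 7.94 and 11.3 CPM with quercetin. It is a passenger arm with a log2 fold change of -2.21 (SE 0.34, edgeR adjusted p = 0.000316) and held its call throughout. In the miR-15/16 family 1 of 12 fell and in the cluster of miR-322, miR-503 and miR-351 1 of 10, beside the same 8.98%. In both cases it was miR-322-5p (-0.73), which kept its call without control 3, control 4 or quercetin 1 (up to 0.1997). That call was also lost with DESeq2's size factors in edgeR, upper quartile scaling or library totals alone, without a filter, in a fit of the 8 libraries only and with the exchanged rows put back. The family of miR-148 and miR-152 had 0 of 6 past the threshold in edgeR, median 0.16.

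Some miRNAs bypass a step of the usual processing. Of 9 tested Drosha- or Dicer-independent members 2 rose and 2 fell (median -0.30), beside 6.87% higher and 8.98% lower among all tested. miR-320-3p, made without Drosha from the capped end of its own transcript, was at 309, 384, 549.6 and 597 CPM in controls and 966, 1167, 1480.5 and 1220.2 CPM with quercetin. The groups did not overlap (log2 fold change 1.39, SE 0.30, edgeR adjusted p = 0.00450). The other higher member was miR-451a, described with the erythroid miRNAs. miR-5107-5p (-2.26) and miR-877-3p (-0.9998), the latter from a spliced short intron (a mirtron), fell. The first lost its call without control 2 or quercetin 2, 3 or 4 (up to 0.0686) and the second kept it without control 1 or 4 alone (up to 0.0868).

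Several of the largest differences were in miRNAs of little-known function, whose entries came late to the catalogues. miR-7033-5p, from an intron of Pom121, was at 2.94, 4.41, 6.66 and 4.50 CPM in controls and 48.1, 33.1, 31.9 and 30.4 CPM with quercetin. Quercetin 1 was the highest and no control came near (log2 fold change 2.96, SE 0.31, edgeR adjusted p = 7.89e-06). miR-3057-5p, from an exon of Apba3, was at 26.8, 36.9, 31.9 and 29.9 CPM and 83.9, 58.1, 80.9 and 85.1 CPM, with quercetin 2 the lowest of its group (log2 fold change 1.296). miR-5121 was at 37.7, 28.1, 21.5 and 23.5 CPM and 131, 57.9, 70.0 and 110.4 CPM (log2 fold change 1.74). Its hairpin overlaps the small nucleolar RNA Snord33 on the same strand. That of miR-677-5p (1.22, with an edgeR adjusted p of 0.0833 without mouse 4) is itself annotated as one. The hairpin of miR-664-5p, a miRNA that fell, overlaps the small nucleolar RNA Snora36b, also on the same strand.

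On the lower side, miR-3968 was at 168, 486, 266 and 206 CPM in controls and 61.9, 33.4, 47.6 and 45.3 CPM with quercetin. The groups were apart (log2 fold change -2.58, SE 0.42, edgeR adjusted p = 0.000508). miR-5099 was at 832, 906, 1041 and 822 CPM and 375, 370.3, 377 and 372 CPM, with a quercetin range of only 370 to 377 CPM (log2 fold change -1.27). miR-138-5p, best known from neurons and encoded at 2 loci, was at 259.6, 189.6, 257 and 554 CPM and 47.5, 81.7, 65.3 and 55.2 CPM (log2 fold change -2.33; adjusted p 0.0578 without mouse 4). The miRNAs with the extreme fold changes averaged under 10 CPM and were picked out after their values were seen. Whether their counts are misplaced in the quercetin libraries was not tested. miR-7007-3p, from an intron of the mast cell gene Cpa3, was at 3.17, 3.70, 2.51 and 3.03 CPM and 0.123, 0.105, 0.227 and 0.360 CPM (log2 fold change -3.86). miR-6539 changed by -3.28. miR-3074-5p, encoded opposite to the miR-24 hairpins, was at 0.309, 0, 0.126 and 0 CPM and 6.77, 0.105, 4.20 and 5.64 CPM, so that quercetin 2 was among the controls (log2 fold change 5.01, SE 1.11).

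Smaller differences past the threshold at 10 CPM or more were seen in miR-130b-3p (-0.94), miR-664-5p (-0.82), miR-7a-1-3p (-0.80), miR-10a-3p (-0.79) and miR-28a-5p (-0.74, with counts identical to miR-28c), all lower. On the higher side were miR-455-5p (1.20), miR-350-5p (1.04), miR-1948-3p (0.93) and miR-1933-3p (0.74). Of these 10 names, only miR-455-5p held its call with each library left out. With libraries left out the adjusted p reached 0.0737, 0.0872, 0.134, 0.134 and 0.0543 for those that fell and 0.0886, 0.173 and 0.0986 for those that rose. Leaving out quercetin 4 ended 7 of the 10 calls, and leaving out control 4 ended those of miR-1948-3p and miR-1933-3p.

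Other settings ended some of the calls named above. With upper quartile scaling, the miRNAs that no longer passed were miR-664-5p, miR-130b-3p, miR-223-5p, miR-28a-5p, miR-125a-5p, miR-342-3p, miR-27a-3p, miR-24-1-5p, miR-7a-1-3p, miR-877-3p, miR-221-5p, miR-92a-1-5p, miR-10a-3p and miR-147-5p, beside miR-34b, miR-34c and miR-322-5p. With library totals alone, miR-27a-5p, miR-342-3p, miR-350-5p, miR-92a-1-5p and miR-147-5p did not pass, beside those given above. Without a filter, the calls of miR-29c-5p, miR-1933-3p, miR-1948-3p, miR-181c-5p, miR-10b-5p, miR-30d-5p, miR-350-5p, miR-34b-3p and miR-34c-3p were lost, as were those of miR-664-5p, miR-28a-5p, miR-342-3p, miR-27a-3p, miR-24-1-5p, miR-7a-1-3p, miR-877-3p, miR-92a-1-5p, miR-10a-3p and miR-147-5p. Limma-voom did not call miR-125a-5p, miR-147-5p, miR-10b-5p or miR-127-5p. miR-181c-5p was lost in the fit of the 8 libraries only, and miR-10a-3p with the exchanged rows put back.

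The bulk of the miRNA pool was made of a few species that did not pass. miR-22-3p took 14.8% ± 2.40 of counts in controls and 16.5% ± 1.003 with quercetin (SD, n = 4), and miR-21a-5p 13.4% ± 2.90 and 13.4% ± 1.81. The share of miR-181a-5p was 9.17% ± 1.84 in controls and 13.2% ± 1.98 with quercetin. That of miR-27b-3p was 6.85% ± 0.926 and 5.35% ± 0.481, and that of miR-146b-5p 6.39% ± 2.77 and 2.41% ± 0.717. The log2 fold change was -0.49 for miR-27b-3p, 0.41 for miR-181a-5p, 0.03 for miR-22-3p and -0.10 for miR-21a-5p.

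The balance between the arms of a hairpin passed the test for a shift in few cases. On simulated data that test recovered 5% of 2-fold and 52.6% of 4-fold changes of 1 arm. Many shifts of such sizes could thus be missed, and hairpins that did not pass are not shown to be stable. Both arms were tested for 150 hairpin names, and the log2 ratio of 5p to 3p differed past the threshold in 5 of them (3.33%, limma, 4 toward the 5p arm), with 23 at an unadjusted p under 0.05. For miR-29c the ratio was -4.44, -4.41, -3.91 and -4.19 in controls and -3.17, -2.75, -2.50 and -2.78 with quercetin. All quercetin values were above all controls (shift 1.44, SE 0.26, limma adjusted p = 0.00305), with miR-29c-5p up by 0.87 and miR-29c-3p at -0.57, not past the threshold. For miR-28a the ratio was 0.73, 0.96, 0.61 and 0.44 in controls and -0.59, -0.21, -0.51 and -0.47 with quercetin. The more abundant arm was thus 5p in controls and 3p with quercetin (shift -1.13, SE 0.22, limma adjusted p = 0.00305). miR-28a-5p, whose counts are identical to those of miR-28c, was down by 0.74 on the log2 scale. miR-28a-3p was at 0.39, not past the threshold.

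For miR-486a and miR-486b, which hold 1 set of counts, the shift was 2.55 (SE 0.50, limma adjusted p = 0.00305), and the 3p arm was at 2.58 CPM or less in all 8 libraries. For miR-155 it was 1.41 (SE 0.38, adjusted p = 0.0482), from 7.17, 7.66, 9.05 and 8.31 in controls to 9.22, 9.75, 9.40 and 9.44 with quercetin. That call was lost without any 1 library other than control 3, up to an adjusted p of 0.158 without quercetin 2. The ratio of miR-342 differed by -0.998 (adjusted p = 0.0556) and that of miR-132 by -0.19 (adjusted p = 0.871); neither passed. In 9 hairpins matched by identical names both arms passed, and in these 9 they went the same way: miR-132, miR-212, miR-222, miR-147, miR-342, miR-34c and miR-27a lower, miR-215 and miR-144 higher. Arms whose names differ are outside that count: miR-7a-5p and miR-7a-1-3p were both lower, as were miR-138-5p and miR-138-1-3p. let-7c-5p, which the Mirlet7c-1 and Mirlet7c-2 hairpins both give, was higher (0.97), while let-7c-1-3p was lower (-1.45, at 2.36 CPM or less in all 8 libraries). With 1 library left out, the call of let-7c-1-3p held only without control 1, control 4 or quercetin 2 (otherwise adjusted p up to 0.105). The less abundant arm made up 9 of 19 higher and 15 of 29 lower miRNAs whose other arm was tested (47.4% and 51.7%). Over all arms tested in pairs that share is 50% by definition, so the less abundant arms did not stand out.

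**Figure D4:**
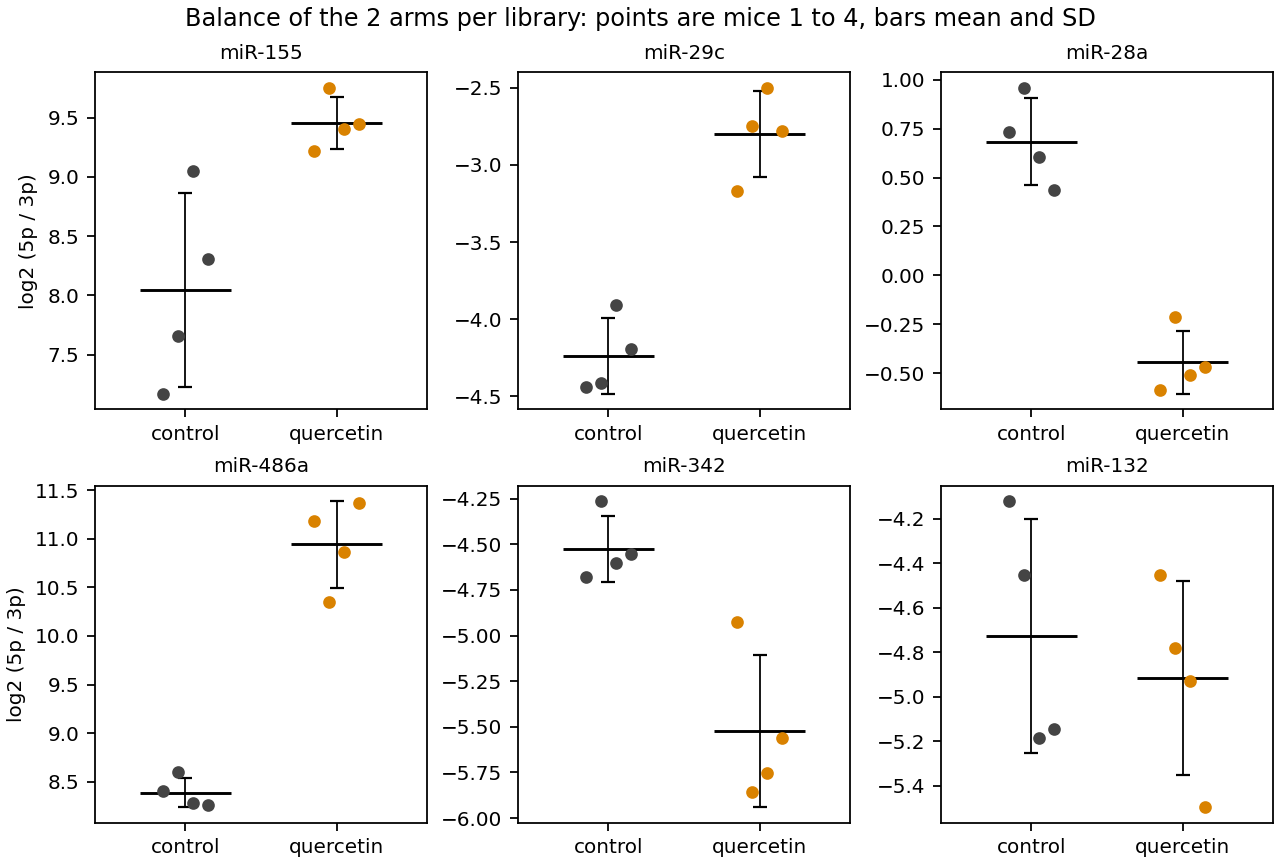
Log2 ratio of 5p to 3p reads (scaled CPM with a prior count) in each library for 6 hairpins, with points for mice 1 to 4 and bars for mean and SD; axes differ between panels. miR-155, miR-29c and miR-486a were higher and miR-28a was lower with quercetin, while miR-342 and miR-132 did not pass the test.

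Counts were also summed over miRNAs with the same seed, since these share most targets. Of 386 seeds tested, 26 were higher (6.74%) and 32 lower (8.29%). Of the 46 seeds with more than 1 tested member, 1 was higher and 5 were lower. The seed of miR-132-3p and miR-212-3p went from 1655 ± 543 CPM to 410 ± 41.0 CPM (SD, n = 4; log2 fold change -2.01), and that of miR-221-3p and miR-222-3p from 21127 ± 2790.2 to 12469 ± 2064 CPM (log2 fold change -0.76, edgeR adjusted p = 0.0295). The seed CCCUGAG of miR-125a-5p, miR-125b-5p and miR-351-5p changed by -1.06, AUCACUA of miR-34b-3p and miR-34c-3p by -0.97, AGGAGCU of miR-28a-5p and miR-708-5p by -0.79 and AUGUGCC of miR-455-5p and miR-5129-3p by 1.08 on the log2 scale.

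Not all seeds of changed miRNAs passed. The shared seed of miR-215-5p and miR-192-5p had a log2 fold change of -0.08 (edgeR adjusted p = 0.900), that of the let-7 guides -0.29 (adjusted p = 0.529) and the seed AAAGUGC of miR-106a-5p, miR-20b-5p and their 4 relatives -0.01 (adjusted p = 0.957). Of the tested miRNAs 458 had a RefSeq sequence, among them 34 of the higher and 42 of the lower. Their median GC content was 45.5% for the higher and 47.8% for the lower, beside 49.0% for all 458, and the median length was 22 bases in each. The first base was U in 41.2%, 31.0% and 40.6%.

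The effect of quercetin in cells that also received LPS was measured in separate libraries of the same mice. There 49 miRNAs were higher (8.63%) and 81 lower (14.3%) in quercetin plus LPS than in LPS alone. That split moved with the scaling, to 67 and 66 with DESeq2's size factors in edgeR, 71 and 54 with upper quartile scaling and 75 and 50 with library totals alone. Of the 39 miRNAs that rose without LPS, 39 had the same sign with LPS and 25 passed there as well (median log2 fold change 1.41). Of the 51 that fell, 50 had the same sign and 39 passed (median -1.36), the exception being miR-223-5p with 0.01. With LPS the log2 fold change was 3.03 for miR-451a, 3.19 for miR-215-5p, -2.02 for miR-132-3p and -3.35 for miR-212-3p. miR-342-3p changed by -1.82 with LPS and -0.80 without. miR-210-3p had 2.26 and missed the threshold (edgeR adjusted p = 0.0520), as did miR-320-3p (0.80, adjusted p = 0.0543).

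No difference between the quercetin effects with and without LPS passed its own test: edgeR called 0 of 568, DESeq2 0 and the fit with the replicate block 0. An unadjusted p under 0.05 was found for 26 miRNAs (4.58%). The smallest was 0.00491, for miR-129-5p (adjusted p = 0.889), which rose by 2.45 without LPS, from 1.55, 1.13, 1.005 and 1.39 to 11.1, 3.45, 9.53 and 4.08 CPM, and had 0.61 with LPS (adjusted p = 0.275). These tests do not show that the effects were equal.

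**Figure D5:**
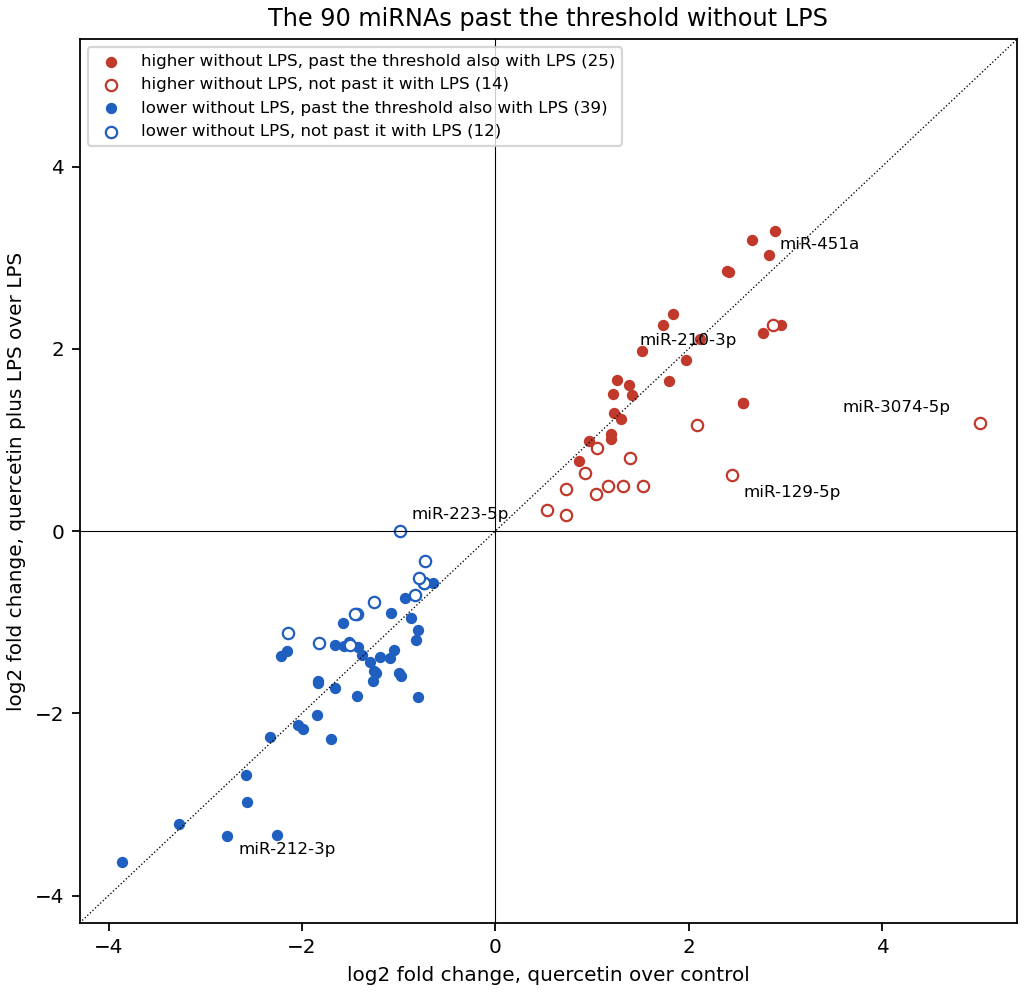
Log2 fold change of quercetin over control (x axis) and of quercetin plus LPS over LPS (y axis) for the 90 miRNAs past the threshold without LPS; the dotted line marks equal values. Filled points (25 higher, 39 lower) also passed with LPS and open points did not; 1 point, miR-223-5p, lies at 0.01 on the y axis.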

How the data were processed

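Small RNA libraries (TruSeq Small RNA kit, total RNA from miRNeasy columns, per the labels' protocols) were deposited as 1 table of raw counts per mature miRNA for all 16 libraries. The submitters' processing notes name cutadapt and the mouse build mm9; the aligner, the counting rule and the miRNA catalogue are not given in the sources used here. The table held 1381 rows and 1377 names. Rows of the 4 names given on 2 rows were summed, 1 row with text among its counts was left out, and so were 4 rows whose counts look exchanged between neighbours in the quercetin libraries, which leaves 1372 names. Whether counts of further rows are misplaced in the quercetin libraries was not tested, and a fold change of such a row would not measure expression.

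Counts were filtered by edgeR's filterByExpr (568 names kept), scaled by TMM and fitted over all 16 libraries with 1 coefficient per group by edgeR 4.0.16 in R 4.3.3 (quasi-likelihood F test, Benjamini-Hochberg adjustment over all names tested, threshold 0.05). SE is the log2 fold change divided by the square root of F. Arm balance was tested with limma 3.58.1 on log2 ratios of CPM with a prior count of 2, and counts summed by seed were tested in edgeR. DESeq2 1.42.0 and limma-voom were alternatives, with other scalings and filters, left-out libraries and a replicate block; the scripts were tested on simulated data. Replicates are cultures of separate mice. Same-numbered libraries come from 1 mouse, per the titles and the series text, so the numbers pair the samples. Deviations of control and quercetin libraries from their group means correlated at 0.42, 0.08, -0.17 and -0.15 for mice 1 to 4, and control 3 correlated best with quercetin 4 (0.47); the labels were kept. Within each group every pair of libraries differed beyond sampling noise (chi-square per degree of freedom 205 to 2081).

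The lists and the part of the series described were chosen with earlier results of these data known. Named were miR-155-5p, miR-146a-5p, miR-369-3p, all miRNAs that passed and averaged 10 CPM or more in the 8 libraries, list members past the threshold and up to 4 more by level, and the 5 most abundant. Mature sequences and hairpin positions come from RefSeq (GRCm38.p6) by name, with host genes from GENCODE on the same build; 1155 names had a sequence, and no mm9 coordinate was used. 15 sets of names (32 names) held identical counts. Names of 1 mature miRNA can share reads with near-identical relatives.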

Additional observations from a re-analysis of the deposited data

Results flagged for a closer look

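Values of single libraries stood far from the remaining 3 of their group (a gap that, divided by the group's range, was above Dixon's 95% critical value) in 12 of 268 groups examined; chance flags about 1 in 20. Of the 12, 5 were in quercetin 1 and 3 in quercetin 2. In quercetin 1, miR-146a-5p was at 1744 CPM (638 to 697 in the others), miR-7033-5p at 48.1 (30.4 to 33.1), miR-486a-5p and miR-486b-5p, 1 set of counts, at 6471 (2458 to 2933) and miR-127-3p at 121 (0.523 to 3.06). In quercetin 2, miR-369-3p was low at 7.75 CPM (15.6 to 16.7) and miR-3057-5p at 58.1 (80.9 to 85.1), while miR-34c-3p was high at 5.44 (4.43 to 4.56). In quercetin 4, miR-210-5p was low at 24.01 CPM (138 to 156). Among controls, miR-142a-3p was at 2518 CPM in control 1 (1182 to 1372), and in control 3 miR-122-5p was at 13.4 (3.49 to 4.33) and miR-34c-3p at 14.1 (7.53 to 8.20).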

How the results depend on the processing

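No named call changed direction under any of the alternatives run, and 26 of 66 named calls passed in all of them, while 8 of 68 named miRNAs outside the threshold passed in at least 1. Against 39 higher and 51 lower, upper quartile scaling gave 29 lower, and a mean of at least 10 CPM gave 23 higher and 32 lower. DESeq2 called 103 miRNAs, among them all 90, and the fit without a filter called 70. Leaving out libraries gave 20 to 38 higher and 26 to 49 lower, with 15 to 25 seeds higher and 16 to 25 lower. With LPS, library totals alone gave 75 higher and 50 lower, a mean of at least 10 CPM 32 lower, DESeq2 81 higher, and fits without 1 library 56 to 81 higher. With rows of 1 name kept apart, 1 name differed between the quercetin effects with and without LPS. In that setting miR-363-3p stands on 2 rows. The first of them had 3, 2, 2 and 3 counts with quercetin and 292, 96, 80 and 153 with quercetin plus LPS. The part of this placement of counts in that result was not tested. With the replicate block 40 miRNAs were higher and 52 lower, sharing 87 with the fit without it, and beyond the 4 named in the results it changed no other named call. With the exchanged rows put back, an alternative chosen after seeing the data, 43 were higher and 48 lower. Leaving out each library in the test of the difference between quercetin effects, also added then, called 0. Low counts limit single members: 18 of the higher and 19 of the lower miRNAs averaged under 10 CPM. The 4 libraries per group, all shallower with quercetin, limit every comparison.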

Other observations

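Some rows of the table changed with quercetin in a way that no fold change describes, and were left out of the tests or should be read with care. miR-1839-5p had 5962, 4800, 8220 and 9706 counts in controls 1 to 4 and 1, 1, 0 and 0 with quercetin, and its neighbour in the table, miR-6993-3p, had 0 counts in every control and 3828, 8866, 7130 and 6606 with quercetin. miR-654-3p had 148, 129, 25 and 100 counts in controls and 1 count in all quercetin libraries together, and its neighbour miR-700-3p had 0 in controls and 59, 52, 57 and 13 with quercetin. The LPS libraries followed their own quercetin state in both pairs: miR-1839-5p had 5755 to 9565 counts with LPS alone and 0 to 4 with quercetin plus LPS. The cause was not tested.

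miR-363-3p, an arm of the miR-106a/363 cluster, stands on 2 rows: in the quercetin libraries its 168, 122, 148 and 144 counts were on another row than in the rest, and the 2 rows were summed. miR-6986-5p also stands on 2 rows. On 1 of them it had 0 counts in every control and 4, 1, 5 and 2 with quercetin. miR-24-2-5p, the passenger of a miR-24 hairpin, switched between libraries of 1 group, with 0, 7094, 0 and 0 counts in controls and 0, 3328, 2499 and 3145 with quercetin, so its log2 fold change of 0.47 is no measure of an effect.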
